A study of Mus musculus with 6 samples.

Results

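The immediate early genes described here are Fos, Fosb, Jun, Junb, Egr1, Egr3, Atf3, Ier2, Dusp1 and Nr4a1, chosen as a named list of 10 among the 18194 genes the array names alone, and measured through the 12 probe sets that the array's platform annotation assigns to 1 of them alone, among 45101 probe sets on the array. The tissue was thyroid, microdissected at postnatal day 15 from Slc26a4 knockout mice (3 arrays) and Slc26a4 heterozygous mice (3 arrays). Slc26a4 encodes pendrin, an anion exchanger of the thyroid follicular cell, and the comparison asked which transcripts differ when it is lost. Each array is called by its genotype and its labelled number, as knockout 2, 4 and 6 and heterozygous 1, 3 and 5. The controls are heterozygotes and so carry the mutant allele as well. The nature of that allele, the strain and sex of the animals, the number of animals behind each RNA and the time between death and RNA isolation are not stated in the labels. A p-value here therefore reflects only how far these samples spread, which may be technical in part.

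Immediate early genes are transcribed within minutes of a stimulus from factors already present in the cell, without new protein synthesis. Growth factors, calcium, cAMP and stress signals reach them through MAP kinases and protein kinase A, which act on the serum response factor with its partners and on CREB at the promoters. Because tissue handling is itself such a stimulus, these transcripts are also known to move during dissection. Fos, Fosb, Jun and Junb encode subunits of the transcription factor AP-1, Egr1 and Egr3 encode zinc finger transcription factors, and Atf3 a stress-inducible factor of the ATF/CREB family. Nr4a1 encodes an orphan nuclear receptor, Ier2 a small nuclear early response protein, and Dusp1 a phosphatase that switches MAP kinases off.

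Values are linear array signals, scaled by the array maker's software to a common mean. Array medians ran from 78.0 to 103.6, and 67.5% to 73.8% of the probe sets on an array exceeded 22.9, the highest value of 27 control probe sets for bacterial transcripts, used here as the background. Slc26a4 itself read between 2.10 and 15.7 on all 6 arrays, under that background, and so does not check the genotypes. The 9 thyroid follicular cell markers with a probe set were above background on every array, with summed signals of 34376 to 41793 in knockout and 35646 to 44596 in heterozygous samples. The arrays differed in the other tissue they held. On knockout 4 the 9 thymocyte and T cell markers summed to 3680, against 191.7 to 303.0 on the other arrays, and Dntt, an enzyme of T cell receptor rearrangement, read 1780 there. The parathyroid markers summed to 3408 on knockout 6 and 1001 on heterozygous 1, against 16254 to 17227 on the others. The skeletal muscle markers summed to 5364 on knockout 6 and to between 15455 and 29222 on the remaining arrays. Xist, a transcript of female cells and not a tissue marker, was high on knockout 6 alone, at 5442 by probe set 1436936_s_at against 34.3 to 110.2 elsewhere. By Xist, knockout 6 held female RNA and the other arrays did not. Sex and the other traits of knockout 6 cannot be told apart where that array is left out.

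The promoter sequences of Fos, Fosb, Nr4a1 and Dusp1 are shown because these transcripts had the 4 widest log2 ranges between arrays among the 10 genes, and that of Jun as a steady AP-1 subunit beside them. They are the 250 bases before the RefSeq start in build GRCm38.p6, written 5′ to 3′ on the strand of the gene. Capitals mark TGACG, the core of the cAMP response element bound by CREB, on either strand. The Fos promoter lies at chr12:85473640-85473889 on the plus strand, that of Fosb at chr7:19310046-19310295 on the minus strand, that of Dusp1 at chr17:26508473-26508722 on the minus strand, that of Nr4a1 at chr15:101266596-101266845 on the plus strand and that of Jun at chr4:95052223-95052472 on the minus strand.
Fos: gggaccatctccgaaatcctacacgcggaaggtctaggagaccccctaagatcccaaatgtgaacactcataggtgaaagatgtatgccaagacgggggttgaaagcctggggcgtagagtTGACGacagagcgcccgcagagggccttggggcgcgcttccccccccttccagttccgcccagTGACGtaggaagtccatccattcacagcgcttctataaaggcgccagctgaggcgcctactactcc
Fosb: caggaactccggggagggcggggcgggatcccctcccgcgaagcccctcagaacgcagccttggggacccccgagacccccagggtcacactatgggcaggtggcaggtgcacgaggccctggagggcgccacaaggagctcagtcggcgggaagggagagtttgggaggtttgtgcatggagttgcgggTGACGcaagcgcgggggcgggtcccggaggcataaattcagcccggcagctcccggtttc
Dusp1: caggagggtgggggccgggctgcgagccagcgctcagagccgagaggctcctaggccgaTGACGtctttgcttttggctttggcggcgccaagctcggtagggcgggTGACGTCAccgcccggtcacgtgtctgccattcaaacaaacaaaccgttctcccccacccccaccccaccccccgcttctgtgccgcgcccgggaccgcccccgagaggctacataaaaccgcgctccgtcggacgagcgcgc
Nr4a1: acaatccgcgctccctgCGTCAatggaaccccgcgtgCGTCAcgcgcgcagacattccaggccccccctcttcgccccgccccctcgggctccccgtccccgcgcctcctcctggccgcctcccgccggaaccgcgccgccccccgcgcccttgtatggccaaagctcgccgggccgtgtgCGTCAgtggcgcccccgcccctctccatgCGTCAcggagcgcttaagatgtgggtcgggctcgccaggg
Jun: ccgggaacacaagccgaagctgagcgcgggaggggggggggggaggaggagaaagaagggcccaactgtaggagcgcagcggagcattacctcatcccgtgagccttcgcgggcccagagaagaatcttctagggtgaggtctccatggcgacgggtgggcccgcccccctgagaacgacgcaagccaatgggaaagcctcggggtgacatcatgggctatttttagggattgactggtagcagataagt

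Promoter sequences were matched by symbol, and any match on the chromosome of Egr1 was set aside. This left 7 of the 10 genes, Fos, Fosb, Jun, Junb, Atf3, Dusp1 and Nr4a1. The TGACG core was present in 6 of the 7, and in 17.8% of the 32851 promoter windows of the same length in the RefSeq table. Fos held 2 cores, at -129 to -125 and -66 to -62 from the start. Fosb held 1, at -60 to -56. Dusp1 held 3, at -191 to -187, -143 to -139 and -140 to -136, where the last overlaps its neighbour on the opposite strand. Nr4a1 held 4, at -233 to -229, -213 to -209, -69 to -65 and -40 to -36, and 3.9% of all windows held 2 or more. The CArG box, the motif of the serum response factor, was found in 0 of the 7 windows and in 1.47% of all windows. Egr1, Egr3 and Ier2 are not among the 7, and bases farther than 250 before the start were not searched. The count therefore does not tell whether the members have such boxes elsewhere. The letters TATAAA occurred in Fos at -33 to -28 and in none of the other 6, against 12.4% of all windows with either strand counted. A match is a run of letters and not a measured site, and a window without one says only that these letters are not in it.

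Fos differed widely between arrays, and its differences did not follow genotype. Its signal was 2185, 1191 and 1553 in knockouts 2, 4 and 6, against 2891, 991 and 1843 in heterozygotes 1, 3 and 5. The highest and the lowest value were both heterozygous, and the knockouts lay between them. The highest array stood 2.92-fold above the lowest, a range of 1.53 on the log2(signal + 16.7) scale used throughout, which understates changes of dim genes. This was the widest of the 10 on that scale, closely followed by Fosb, whose linear range was wider at 3.96-fold. Of the 27022 probe sets tested, those bright enough to pass a filter on dim ones, 6.49% had a range at least as wide, and of the 5035 at least as bright as Fos, 0.536% did. The means were 1643 ± 503 in knockout and 1908 ± 952 in heterozygous thyroid (SD, n = 3 each). The log2 difference, knockout minus heterozygous here and below, was -0.13 with a 95% interval of -0.98 to 0.73 (limma, adjusted p = 1). Adjusted p-values follow Benjamini and Hochberg over all 27022 probe sets, and a gene passed where they were under 0.05. It turned positive without heterozygous 1 (0.23) or knockout 4 (0.079). Knockout 2 and heterozygous 1, the highest arrays for Fos, were also the highest for the sum of follicular cell markers (41793 and 44596) and for that of skeletal muscle markers (29222 and 28058). The other arrays did not keep the order. Heterozygous 5, knockout 6, knockout 4 and heterozygous 3, in falling order of Fos, had follicular sums of 35646, 34376, 38272 and 39655. Their muscle sums were 17001, 5364, 15455 and 20943. Single markers could differ from their sum, as Tg was lowest on knockout 2 (11794) and Myh1 highest on heterozygous 3 (6383). The sum of cartilage markers was also highest on knockout 2 and heterozygous 1 (4214 and 3774), most of it from Sox9 (4046 and 3677). The part of these tissues in the Fos values was not tested. Fewer cells of a type and less RNA per cell cannot be told apart in such whole-tissue samples.

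Fosb, another AP-1 subunit of the Fos family, was the member nearest to a genotype difference, and it did not pass. It read 53.6, 72.3 and 26.6 in knockouts 2, 4 and 6, against 78.8, 66.7 and 105.2 in heterozygotes 1, 3 and 5. The groups overlapped because knockout 4 lay above heterozygous 3. The means were 50.8 ± 23.0 in knockout and 83.6 ± 19.7 in heterozygous samples (SD, n = 3 each), and the log2 difference was -0.61 ± 0.31 (SE), its 95% interval running from -1.34 to 0.11 (limma, unadjusted p = 0.0853, adjusted p = 1). An exact two-sided permutation test of its log2 values gave p = 0.2, where 3 arrays against 3 cannot go below 0.1. The lowest value, 26.6 on knockout 6, was close to the background of 22.9, and the highest array stood 3.96-fold above it. Without knockout 6 the difference was -0.32, with array weights -0.29, and with a pseudocount of 66.6 or 4.17 in place of 16.7 it was -0.37 or -0.75.

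The Jun subunits of AP-1 ranged less between arrays than Fos and Fosb. Jun had 2 probe sets, and the brighter, 1448694_at, read 2896, 3463 and 3067 in knockouts 2, 4 and 6, against 3523, 3332 and 3491 in heterozygotes 1, 3 and 5. Knockouts 2 and 6 were the lowest, and knockout 4 lay within the heterozygous range. The log2 difference was -0.14, with an interval of -0.35 to 0.08 (limma, adjusted p = 1), so a fall larger than 0.35 or a rise larger than 0.08 lies outside it. The other probe set, 1417409_at, read 669.8 to 701.8 in knockout and 616.3 to 780.7 in heterozygous samples, a log2 difference of -0.04. Junb read 85.6, 74.9 and 94.6 in knockouts 2, 4 and 6, against 82.2, 100.4 and 115.7 in heterozygotes 1, 3 and 5. Its groups overlapped, and the log2 difference was -0.19 with an interval of -0.66 to 0.29 (limma, adjusted p = 1).

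**Figure D1:**
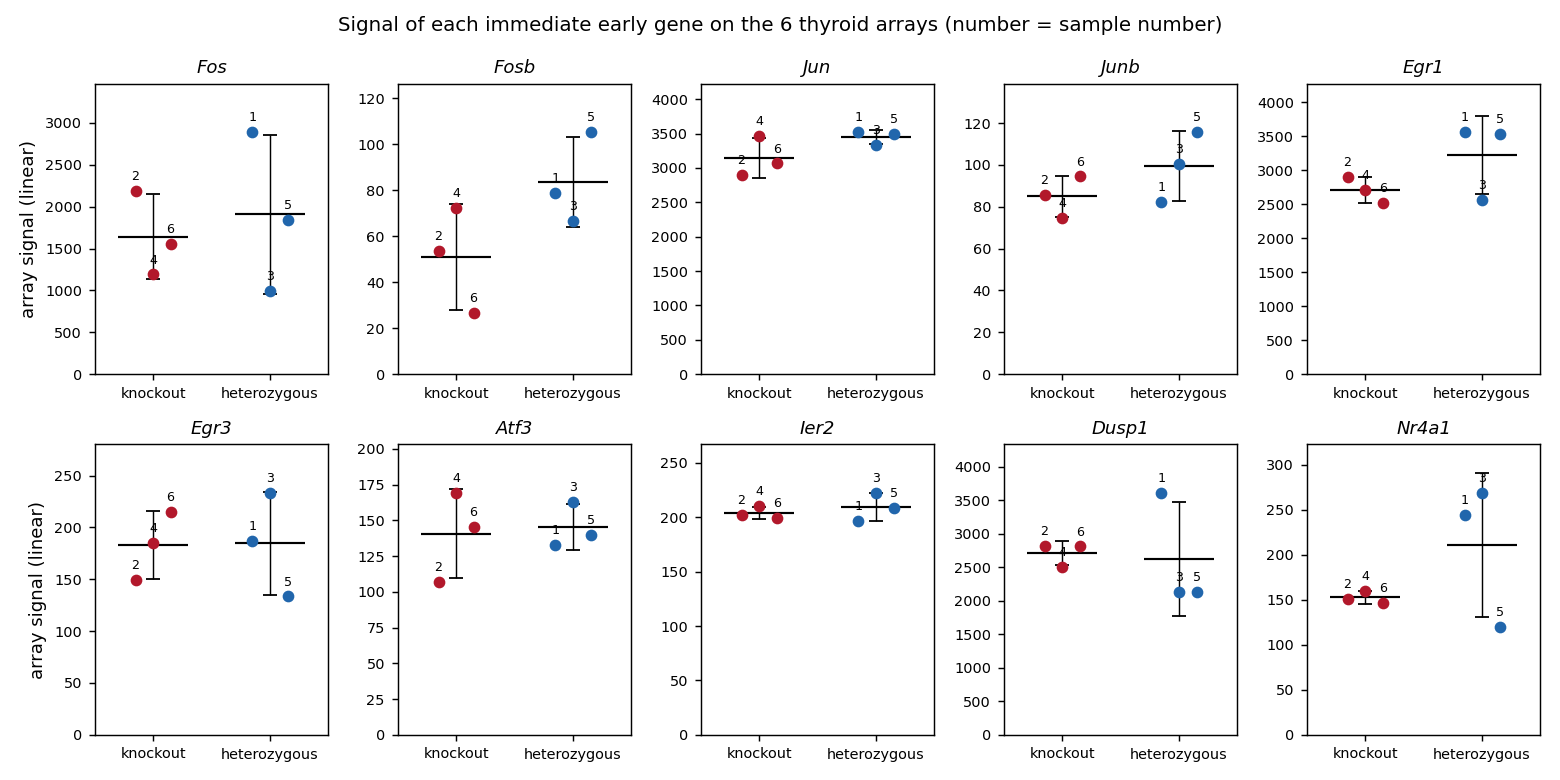
Linear array signal of each gene (vertical axis, from 0, by its brightest probe set) in knockout (red, left) and heterozygous (blue, right) thyroid. Points are arrays with their sample numbers, horizontal lines the means and bars the SD (n = 3). The points of the genotypes overlap in all 10 genes, Fos spans 991 to 2891 and Ier2 only 197.0 to 222.5.

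Egr1 ran lower in knockout thyroid by its mean but overlapped. It read 2903, 2712 and 2521 in knockouts 2, 4 and 6, against 3562, 2568 and 3540 in heterozygotes 1, 3 and 5. Heterozygotes 1 and 5 stood above all other arrays, while heterozygous 3 lay among the knockouts. The means were 2712 ± 191 and 3224 ± 568 in knockout and heterozygous samples (SD, n = 3 each), a log2 difference of -0.23 with an interval of -0.55 to 0.09 (limma, adjusted p = 1). Egr3 read 149.0, 185.0 and 214.9 in knockouts 2, 4 and 6, against 187.0, 233.3 and 133.4 in heterozygotes 1, 3 and 5 by probe set 1436329_at. The heterozygous values enclosed those of the knockouts, and the log2 difference was 0.01 with an interval of -0.54 to 0.55. Its sign turned without knockout 4 (-0.0079), heterozygous 5 (-0.19) or knockout 6 (-0.11). The other probe set of Egr3, 1421486_at, read 7.57 to 29.0 in knockout and 27.4 to 32.0 in heterozygous samples, a log2 difference of -0.54. It was above background on 4 of 6 arrays, fell under the filter on dim probe sets and was not tested.

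Nr4a1 was tightly grouped in knockout and widely spread in heterozygous thyroid. It read 151.4, 160.3 and 146.7 in knockouts 2, 4 and 6, against 244.3, 269.1 and 120.2 in heterozygotes 1, 3 and 5. The knockout arrays lay close together between a high pair of heterozygotes and the low heterozygous 5. The means were 152.8 ± 6.94 in knockout and 211.2 ± 79.8 in heterozygous samples (SD, n = 3 each), a log2 difference of -0.36 with an interval of -1.01 to 0.29 (limma, adjusted p = 1). Without heterozygous 3 it was -0.16, and without heterozygous 5 it was -0.69. Dusp1 had a like spread among heterozygotes with another array on top. It read 2821, 2506 and 2811 in knockouts 2, 4 and 6, against 3612, 2129 and 2135 in heterozygotes 1, 3 and 5. Heterozygous 1 was above and the other heterozygotes were below all knockouts. The log2 difference was 0.09 with an interval of -0.37 to 0.55 (limma, adjusted p = 1), and it turned negative without heterozygous 3 (-0.036) or heterozygous 5 (-0.034). The difference in spread between the genotypes in Nr4a1 and Dusp1 was seen in the values and was not tested. It ran the other way in Fosb, Atf3 and Jun 1448694_at, whose SD was 290.6 in knockout and 102.3 in heterozygous samples for Jun.

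By the brightest probe set of each gene, Atf3 and Ier2 showed the smallest shifts beside Egr3. Atf3 read 107.2, 169.3 and 145.7 in knockouts 2, 4 and 6, against 132.9, 163.1 and 140.0 in heterozygotes 1, 3 and 5. The knockouts held both its lowest and its highest array, and the log2 difference was -0.06 with an interval of -0.54 to 0.43, positive without knockout 2 (0.11) or heterozygous 3 (0.020). Ier2 read 202.5, 210.3 and 199.6 in knockouts 2, 4 and 6, against 197.0, 222.5 and 208.8 in heterozygotes 1, 3 and 5. It was the steadiest member, with a 1.13-fold range, and 97.2% of all tested probe sets had a wider or equal one. Its log2 difference was -0.03 with an interval of -0.38 to 0.32, and 0.0085 without heterozygous 3.

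Together, 0 of the 10 genes passed between knockout and heterozygous thyroid, where limma called 0% of the 27022 probe sets tested. Before adjustment, 0 of the 10 had a limma p under 0.05, beside 138 probe sets or 0.511% of all, and a test of each probe set without shared variance also had 0 of the 10, beside 283 probe sets or 1.05% of all. The genotypes overlapped in all 10, and they did not overlap in 3.68% of all probe sets tested. With such small shares over all probe sets, 0 of the 10 says little about these genes and does not show that the genotypes are alike. The knockout mean was lower in 8 genes and higher in 2, with a median log2 difference of -0.13, beside 50.7% lower and a median of -0.002 over all tested. The number lower lay between 7 and 10 when any 1 array was left out, and the median then between -0.16 and -0.11. It was 8 both without heterozygous 1 and knockout 6 and without knockouts 4 and 6, where the medians were -0.10 and -0.21. The median size of a member's log2 difference was 0.13, against 0.09 over all tested, and its median range over the arrays was 0.66, against 0.54.

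**Figure D2:**
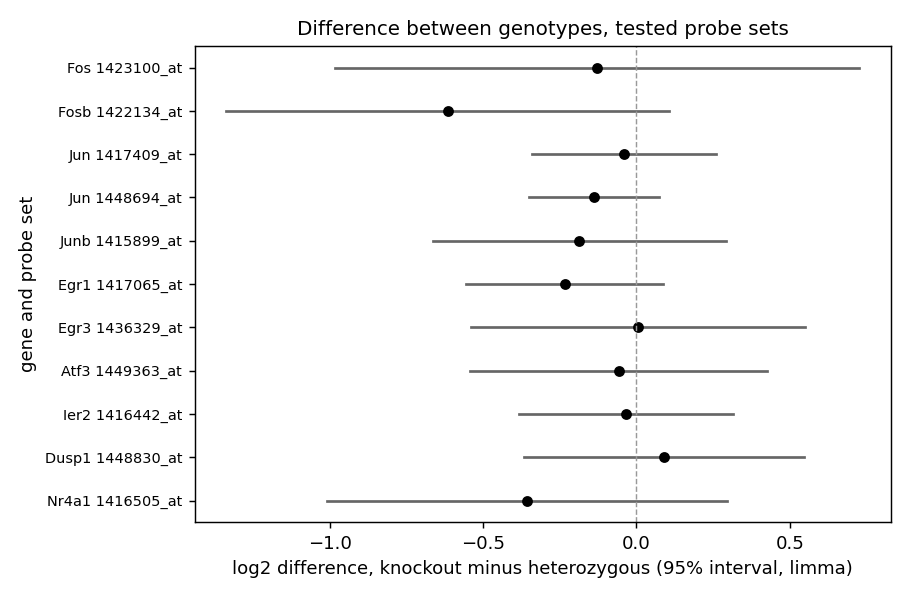
Log2 difference of knockout minus heterozygous (horizontal axis) with its 95% interval from limma for the 11 tested probe sets of the 10 genes. Every interval includes 0, and that of Fos, from -0.98 to 0.73, is the widest while that of Jun 1448694_at, from -0.35 to 0.08, is the narrowest.

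The 10 genes did not move as a block across arrays. The median deviation of the 10 from their own means was -0.13, -0.02 and -0.07 on knockouts 2, 4 and 6, against 0.18, 0.08 and 0.05 on heterozygotes 1, 3 and 5. On heterozygous 1, 7 of the 10 genes were above their own mean, and on knockout 2, 2 were. The medians hide opposite moves. On knockout 2 Fos was 0.39 above its mean while Atf3 was 0.35 below, and on heterozygous 3 Nr4a1 was 0.58 above while Fos was 0.74 below. On heterozygous 5 Fosb was 0.61 above and Nr4a1 0.49 below.

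**Figure D3:**
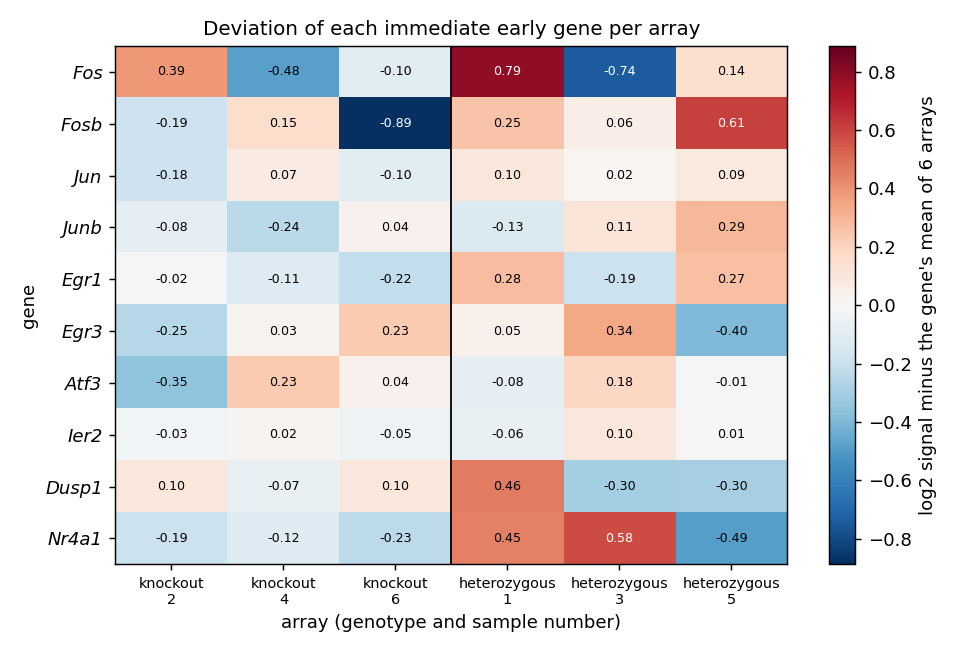
Log2 signal minus the gene's mean of the 6 arrays (colour and printed value) for each gene (rows) on each array (columns, knockouts left of the line, heterozygotes right). No column has a single colour; heterozygous 3 holds both a low Fos (-0.74) and a high Nr4a1 (0.58).

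Among the 45 pairs of members, log2 signals correlated positively over the 6 arrays in 27 and negatively in 18, with a median Pearson r of 0.07. No pair passed an exact permutation test after Benjamini-Hochberg adjustment over the 45 (lowest adjusted p = 0.634 for Pearson and 0.5 for Spearman). Fos and Dusp1 shared their top pair, heterozygous 1 and knockout 2, and their lowest array, heterozygous 3. They had r = 0.75 (exact permutation p = 0.0903, adjusted p = 0.634) and a Spearman coefficient of 0.83 (exact permutation p = 0.0583, adjusted p = 0.525). Over the 4 arrays left without heterozygous 1 and 3, the farthest from the Fos median, the r was 0.08. Fos and Egr1 had r = 0.75 (exact permutation p = 0.0986, adjusted p = 0.634) and a Spearman coefficient of 0.77 (exact permutation p = 0.103, adjusted p = 0.661), with 0.46 without the same arrays. Other pairs with Fos ran the opposite way. Fos and Ier2 had r = -0.83 (exact permutation p = 0.0375, adjusted p = 0.634) and a Spearman coefficient of -0.83 (exact permutation p = 0.0583, adjusted p = 0.525), with -0.42 over the same 4 arrays. Fos and Atf3 had r = -0.77 (exact permutation p = 0.0694, adjusted p = 0.634) and a Spearman coefficient of -0.89 (exact permutation p = 0.0333, adjusted p = 0.5), with -0.94 over the same 4. Ier2 and Dusp1 also ran opposite ways, with r = -0.85 (exact permutation p = 0.0361, adjusted p = 0.634) and a Spearman coefficient of -0.89 (exact permutation p = 0.0333, adjusted p = 0.5), and -0.77 without heterozygous 1 and 3, while Ier2 moved over a 1.13-fold range in all. Fosb and Jun ran together, with r = 0.73 (exact permutation p = 0.0778, adjusted p = 0.634). Their Spearman coefficient was 0.89 (exact permutation p = 0.0333, adjusted p = 0.5). Without knockout 6 and heterozygous 5, the farthest from the Fosb median, their r was 0.98.

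Early response genes outside the 10 were split in direction. Of 20 other early transcription factors tested, 9 had the higher and 11 the lower mean in knockout thyroid, with a median log2 difference of -0.01, and 0 passed (limma). Cebpb, a bZIP factor of inflammation and fat cell formation, read 1277, 1358 and 1753 in knockouts 2, 4 and 6, against 1100, 818 and 1365 in heterozygotes 1, 3 and 5, and heterozygous 5 stood within the knockout range. Its log2 difference was 0.43 (limma, unadjusted p = 0.0651, adjusted p = 1). Nr4a3, a receptor of the same family as Nr4a1, ranged 5.46-fold, with 315.1, 425.7 and 743.8 in knockouts 2, 4 and 6 and 411.1, 571.4 and 136.3 in heterozygotes 1, 3 and 5. Its lowest array, heterozygous 5, was also the lowest for Nr4a1 and Egr3, and without it the log2 difference of 0.51 became -0.06. The other genes named by p were Hes1, a target of Notch signalling, at -0.19, and Ier5l, an early response gene, at -0.25.

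Feedback regulators and secreted products were likewise split, with 11 higher and 18 lower of 29 tested, a median of -0.05 and 0 passing. Dusp4, a nuclear MAP kinase phosphatase, read 648.7, 1056 and 1436 in knockouts 2, 4 and 6, against 574.4, 655.4 and 881.4 in heterozygotes 1, 3 and 5. Knockout 2 lay within the heterozygous range, and the log2 difference was 0.51 (limma, adjusted p = 1). Thbs1, the matrix protein thrombospondin, read 2797, 1672 and 1037 in knockouts 2, 4 and 6, against 2402, 2506 and 2364 in heterozygotes 1, 3 and 5. The knockouts spread to both sides of the heterozygotes, and the log2 difference of -0.51 was -0.16 without knockout 6. Dusp5, a phosphatase specific for ERK, was one of 3 genes of the list whose groups did not overlap, at 381.0 ± 21.6 in knockout and 445.8 ± 38.3 in heterozygous samples (SD, n = 3 each), a log2 difference of -0.22 (limma, adjusted p = 1), where 3.68% of all probe sets tested did not overlap. The other 2 were Nfkbiz, a regulator of NF-kappaB (0.12), and Homer1, a scaffold protein (0.11), named here after their values were seen. Sik1, a kinase that restrains CREB coactivators, was at -0.22.

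Upstream regulators were the steadiest of the lists, with a median range of 0.34 on the log2 scale, and 11 of 18 had the higher and 7 the lower mean in knockout thyroid, with a median of 0.02 and 0 passing. Srf, the serum response factor, read 588.6, 563.1 and 308.1 in knockouts 2, 4 and 6, against 584.2, 693.2 and 478.7 in heterozygotes 1, 3 and 5. Knockout 6 was the lowest, and the log2 difference was -0.30 (limma, adjusted p = 1), -0.0078 without knockout 6 and -0.10 with the probe sets of the gene averaged. Crtc2, a CREB coactivator, was the gene of the list whose groups did not overlap, at 236.9 ± 12.4 in knockout and 268.1 ± 16.6 in heterozygous samples (SD, n = 3 each), a log2 difference of -0.17 (limma, adjusted p = 1), and 1 of 18 is read beside the same 3.68%. Crem, a relative of CREB, and the acetyltransferase Crebbp were at -0.18 and -0.09.

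Genes downstream of AP-1 and Egr1, and heat shock genes, gave medians close to 0. Of 10 target genes, 7 had the higher and 3 the lower mean in knockout thyroid, with a median of 0.03 and 0 passing. They were led by p by the intermediate filament Vim (0.10), the hyaluronan receptor Cd44 (-0.14), the Egr corepressor Nab1 (-0.09) and the cyclin Ccnd1 (0.16). Of 11 heat shock genes, 6 were higher and 5 lower, with a median of 0.02 and 0 passing. Hspa1a, the inducible Hsp70, read 455.7, 296.0 and 230.0 in knockouts 2, 4 and 6, against 397.2, 435.0 and 402.5 in heterozygotes 1, 3 and 5. Knockout 2 was the highest array and the other knockouts the lowest, and the log2 difference was -0.37 (limma, adjusted p = 1). Its near-identical copy Hspa1b was at -0.11, and probes may not separate them. Hspb1 and Dnaja1, also chaperones, were at -0.12 and 0.11.

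**Figure D4:**
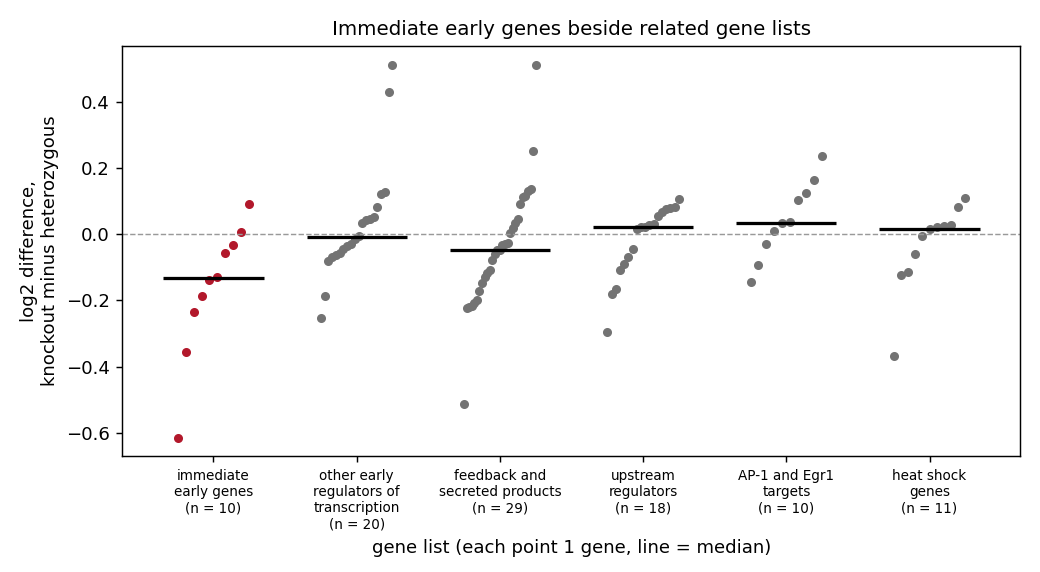
Log2 difference of knockout minus heterozygous (vertical axis) for each gene of 6 lists (horizontal axis), each point 1 gene by its brightest tested probe set and each line the list's median. The immediate early genes (red) have a median of -0.13, and the medians of the other lists (grey) lie between -0.05 and 0.03.

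The genes outside the list whose pattern over the 6 arrays was most like the mean deviation of the 10 members were Adcy9, the ubiquitin ligase gene Arih1, Arhgap21, the corepressor Sin3a, the zinc finger factor Prdm4, and 1810055G02Rik. Likeness was the root mean square difference of log2 deviations over 6 arrays, which lay between 0.04 and 0.05 for them, among 18785 probe sets that varied at least as much as the members' mean. That mean itself varied little, with an SD of 0.12. A search of so many probe sets over 6 arrays finds close matches by itself, and a link of these genes to the members was not tested. Adcy9, an adenylyl cyclase that makes cAMP, was the closest, at 853.9, 870.8 and 836.0 in knockouts 2, 4 and 6, against 1049, 895.4 and 980.9 in heterozygotes 1, 3 and 5. Its log2 difference of -0.19 did not pass (limma, adjusted p = 1).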

How the data were processed

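Thyroid RNA of 6 mouse samples was hybridised to Affymetrix mouse expression arrays after amplification with the Ovation method, per the labels' protocols. The authors deposited a linear intensity for each probe set on each array, made with GCOS per the submitters' processing notes, whose version is not stated there. Each array had a mean of 500.002 after trimming 2% at each end, so a shift shared by most transcripts would have been removed.

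Signals were used as log2(signal + 16.7), the 25th percentile of all values. The 64 control probe sets and those whose mean lay under the 40th percentile (a signal of 43.5) were left out, and the remaining 27022 were compared between knockout and heterozygous samples with limma 3.58.1 in R 4.3.3 (lmFit, eBayes with an intensity trend), adjusted by the Benjamini-Hochberg method with a threshold of 0.05. Of all probe sets, 34958 had 1 gene symbol, 932 several and 9211 none in the platform annotation. A gene is given by its brightest tested probe set. Of the 12 probe sets of the members, 11 passed the filter. The number of arrays limits the precision.

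The members, lists and rules were chosen with earlier results of these data known. The rule named the members, Slc26a4, the 4 genes of smallest p in each list and the 6 most alike in pattern; tissue markers and sample checks are named besides. Alternatives were quantile and cyclic loess normalization, other pseudocounts and filters, eBayes without a trend or robust, array weights, all probe sets of a gene averaged, and each array left out; those leaving out 2 arrays were added after seeing the data.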

Additional observations from a re-analysis of the deposited data

How the results depend on the processing

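Over all probe sets, and so for the listed genes, limma called 0 under each normalization, pseudocount, filter, eBayes and weight alternative and with each array left out in turn. No member passed there or without 2 arrays, with 0.959 as the lowest adjusted p; averaged probe sets were not tested. Of 176 member differences under alternatives, 18 changed sign. Egr3 read -8e-04 with quantile normalization, and with array weights Egr3 read -0.062, Atf3 0.070 and Dusp1 -0.048. With 1 array left out the ranges were -0.53 to 0.23 for Fos, -0.19 to 0.18 for Egr3, -0.19 to 0.11 for Atf3, -0.073 to 0.0085 for Ier2, -0.036 to 0.34 for Dusp1, -0.059 to 0.91 for Nr4a3 and -0.093 to 0.20 for Dnaja1. Without heterozygous 1 and knockout 6 Fos read 0.25 and Egr3 -0.084, and without knockouts 4 and 6 Fos read 0.32, Egr3 -0.25 and the members' median -0.21. The members' median deviation on knockout 2 was -0.058 with quantile normalization, -0.056 with cyclic loess and -0.022 when probe sets under the 60th percentile were dropped, which leaves 6 members (without Fosb, Junb, Atf3 and Nr4a1), 4 of them lower and with a median difference of -0.081. That on heterozygous 3 was -0.0014 with cyclic loess and -0.087 with that filter, and on knockout 6 it was -0.17 with quantile normalization. List medians moved to -0.064 for transcription factors and 2e-04 for upstream regulators with array weights, and to -0.028 for upstream regulators with probe sets averaged. With 1 array left out they ran from -0.017 to 0.021 for upstream regulators, -0.034 to 0.12 for targets and -0.076 to 0.012 for heat shock genes. The cause of these moves was not tested. No paired analysis was made because the labels give no batch, litter or pairing. Probe sets near the background, such as the lowest value of Fosb and the dimmer one of Egr3, limit what can be told.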
